A study of Mus musculus with 16 samples.

Results

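Hyaluronan is a long, unsulfated sugar polymer of the extracellular matrix. It is made at the plasma membrane by the synthases HAS1, HAS2 and HAS3 from UDP-glucuronic acid and UDP-N-acetylglucosamine, is bound by receptors and matrix proteins, and is cut by hyaluronidases and taken up for lysosomal breakdown. In fat, as in other connective tissues, stromal cells are a main source of it. The 8 genes described here are 3 synthases (Has1, Has2, Has3), 2 hyaluronidases (Hyal1, Hyal2), the cell surface receptor gene Cd44, and the genes of 2 secreted binding proteins, Tnfaip6 and Vcan. They were taken by gene symbol from a table of 27179 genes, and all 8 were found and passed the filter on low values. They are hyaluronan genes selected on their known roles with their normalized counts in these same libraries already in view, so their levels and differences are a description, without p-values.

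The libraries come from cultured PDGFRb+ stromal cells of C57BL/6 mice, taken from the inguinal white fat depot, sorted by flow cytometry and separated into DPP4_pos and DPP4_neg adipose progenitor cells (APCs). Each of the 4 groups has 4 RNA-seq libraries: DPP4_pos APCs with isoproterenol, DPP4_pos APCs with vehicle (PBS), DPP4_neg APCs with isoproterenol and DPP4_neg APCs with vehicle. All cells had been grown with 10% serum and were exposed for 4 h to PBS or to isoproterenol, an agonist of beta-adrenergic receptors that raises cAMP, at a labelled dose of 10 mM. The sources used here give neither age nor number of mice, and nothing says that replicates were separate cultures or animals, so errors measure only the spread between these libraries.

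Between 9823799 and 28627223 reads fell in genes per library, and values are normalized counts (reads divided by a size factor per library). Dpp4 had a mean of 2223 normalized counts in DPP4_pos and 9.88 in DPP4_neg isoproterenol libraries, and of 3053 and 21.1 in the DPP4_pos and DPP4_neg vehicle libraries. Pdgfrb, the gene of the sorting receptor, averaged 2105 normalized counts in DPP4_pos isoproterenol, 7562 in DPP4_pos vehicle, 9028 in DPP4_neg isoproterenol and 11315 in DPP4_neg vehicle libraries. Other progenitor markers differed in unlike directions. Pi16 averaged 21761 with isoproterenol and 518 with vehicle in DPP4_pos, and 1099 and 8.37 in DPP4_neg libraries. Pdgfra averaged 10639 and 33546 in DPP4_pos, and 10597 and 13351 in DPP4_neg isoproterenol and vehicle libraries. For Cd34 these means were 1786.5 and 2618 in DPP4_pos, and 60.9 and 36.3 in DPP4_neg libraries. Markers of other cell types differed between groups. The 8 mural markers (smooth muscle and pericyte genes, mostly Acta2) summed to 4859 to 5809 normalized counts in DPP4_pos and 71810 to 77506 in DPP4_neg isoproterenol libraries, and to 7624 to 8757 and 103082 to 113294 in the DPP4_pos and DPP4_neg vehicle libraries. Acta2 (mean 3983 in DPP4_pos and 68176 in DPP4_neg isoproterenol libraries), Myh11, Abcc9, Des and Cspg4 were higher in DPP4_neg under both treatments. Notch3 and Kcnj8 were higher in DPP4_pos under both treatments, and Rgs5 was higher there with isoproterenol only. The 10 macrophage and leukocyte markers summed to 627 to 1368 in DPP4_pos isoproterenol, 554 to 995 in DPP4_pos vehicle, 744 to 1795 in DPP4_neg isoproterenol and 435 to 957 in DPP4_neg vehicle libraries. Endothelial markers, of which 8 were read, summed to 1304 to 1418, 1186 to 1242, 242 to 306 and 211 to 245 in the same order of groups. The DPP4_pos sums were mostly Kdr and Tek, which differed in opposite directions. Kdr averaged 684 with isoproterenol and 39.9 with vehicle there, and Tek 410 and 1013. Mesothelial cells also make hyaluronan. Of their 9 markers, 7 or 8 averaged under 10 normalized counts in each group, and Msln, Upk3b, Upk1b and Muc16 averaged at most 1.06. The mesothelial sum, mostly Krt19, was 124 to 190 in DPP4_pos isoproterenol, 121 to 174 in DPP4_pos vehicle, 1250 to 1717 in DPP4_neg isoproterenol and 623 to 796 in DPP4_neg vehicle libraries. The part of these cells in the results was not tested, and in bulk RNA a change in the number of cells of a type and in RNA per cell cannot be told apart.

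Promoter sequences are shown for the 3 genes with the highest isoproterenol-to-vehicle differences in both populations, Has1, Tnfaip6 and Vcan. Each is the 250 bases before the transcription start that RefSeq annotates on GRCm38.p6, written 5′ to 3′ on the gene's strand. Capitals mark matches to the core of the cAMP response element (TGACG) or to an AP-1 site (TGANTCA), searched on both strands.
Has1, chr17:17855189-17855438, minus strand: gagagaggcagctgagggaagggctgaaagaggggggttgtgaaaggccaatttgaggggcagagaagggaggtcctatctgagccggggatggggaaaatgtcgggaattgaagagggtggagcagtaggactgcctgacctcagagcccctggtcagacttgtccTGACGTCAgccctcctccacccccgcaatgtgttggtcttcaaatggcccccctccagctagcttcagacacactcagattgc
Tnfaip6, chr2:52037863-52038112, plus strand: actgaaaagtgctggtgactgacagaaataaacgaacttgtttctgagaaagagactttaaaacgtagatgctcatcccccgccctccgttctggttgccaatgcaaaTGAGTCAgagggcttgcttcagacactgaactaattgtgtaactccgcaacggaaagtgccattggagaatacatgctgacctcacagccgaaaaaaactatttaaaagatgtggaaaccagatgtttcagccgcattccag
Vcan, chr13:89742513-89742762, minus strand: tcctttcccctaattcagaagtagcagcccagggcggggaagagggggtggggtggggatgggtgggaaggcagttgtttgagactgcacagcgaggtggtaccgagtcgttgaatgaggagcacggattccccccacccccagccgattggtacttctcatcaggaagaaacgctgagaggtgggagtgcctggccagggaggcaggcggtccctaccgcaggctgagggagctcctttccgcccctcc

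The Has1 window holds the full palindromic cAMP response element TGACGTCA from base -83 to base -76 before the start, which contains the core once on each strand. Of 32851 such windows in the RefSeq table, 1.55% hold the full element and 17.8% the core. The Tnfaip6 window has no core match and a match to the AP-1 motif (TGAGTCA) from base -142 to base -136, a motif found in 6.75% of windows. Of the 8 genes, 6 matched the promoter table. Neither motif matched in the windows of Vcan, Cd44, Hyal1 and Hyal2. A match describes letters only, and binding was not measured.

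Hyaluronan synthases were compared first. Has1, on chromosome 17 from 17843323 to 17855205 (GRCm38), encodes a synthase that is low in many resting cells and inducible. It stood at 9348, 8690.3, 9172 and 9907 normalized counts in the DPP4_pos isoproterenol libraries, against 26.0, 20.8, 21.3 and 32.9 in DPP4_pos vehicle libraries. In DPP4_neg APCs it stood at 1655, 1694, 1809 and 1782 with isoproterenol, against 29.0, 9.74, 12.3 and 21.0 with vehicle. Within each population every isoproterenol library lay far above every vehicle library, and the vehicle values of the populations overlapped. The means were 9279 ± 502 and 25.2 ± 5.64 in DPP4_pos and 1735 ± 72.5 and 18.0 ± 8.75 in DPP4_neg isoproterenol and vehicle libraries (SD, n = 4), ratios of 367 and 96.4. On the log2(normalized count + 1) scale the isoproterenol difference was 8.49 ± 0.21 in DPP4_pos and 6.63 ± 0.21 in DPP4_neg APCs (standard error). Vehicle values rest on 24 to 39 reads per DPP4_pos library and 10 to 38 per DPP4_neg library. Of 14005 genes tested, only 6 in DPP4_pos and 11 in DPP4_neg APCs, Has1 included, had a difference that high.

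Has2 (chromosome 15, 56665627 to 56694539) encodes the synthase that makes most hyaluronan in embryonic and many adult connective tissues. Its values were 3224, 2850.3, 2994 and 3247 normalized counts in DPP4_pos isoproterenol libraries, against 447, 463, 443 and 476 in DPP4_pos vehicle libraries. They were 1989, 1524, 1739.9 and 1927 in DPP4_neg isoproterenol libraries, against 688, 553, 610.4 and 661 in DPP4_neg vehicle libraries. The log2 difference was 2.75 ± 0.07 in DPP4_pos and 1.51 ± 0.07 in DPP4_neg APCs. The order of the populations turned with treatment: with vehicle all DPP4_pos libraries were below all DPP4_neg libraries (-0.45 ± 0.07), and with isoproterenol all were above (0.78 ± 0.07). Has2os, an antisense gene that overlaps Has2, averaged 5.07 normalized counts over all libraries. Since the labels do not say whether strand was kept, reads of such partners cannot be told apart.

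Has3 (chromosome 8, 106870242 to 106884566), which encodes a synthase of shorter chains, did not share this pattern. It stood at 39.3, 31.4, 42.4 and 26.3 normalized counts in DPP4_pos isoproterenol and 28.7, 40.1, 36.3 and 41.4 in DPP4_pos vehicle libraries, which overlapped. In DPP4_neg APCs it stood at 19.4, 13.9, 12.6 and 14.4 with isoproterenol, below the 21.4, 22.4, 22.4 and 21.7 with vehicle. The log2 difference was -0.08 ± 0.19 in DPP4_pos and -0.53 ± 0.19 in DPP4_neg APCs, and under quantile normalization that of DPP4_pos APCs was 0.43. These values rest on 8 to 54 reads per library, and Has3 overlaps the opposite-strand gene Chtf8 (mean 1554 normalized counts).

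**Figure D1:**
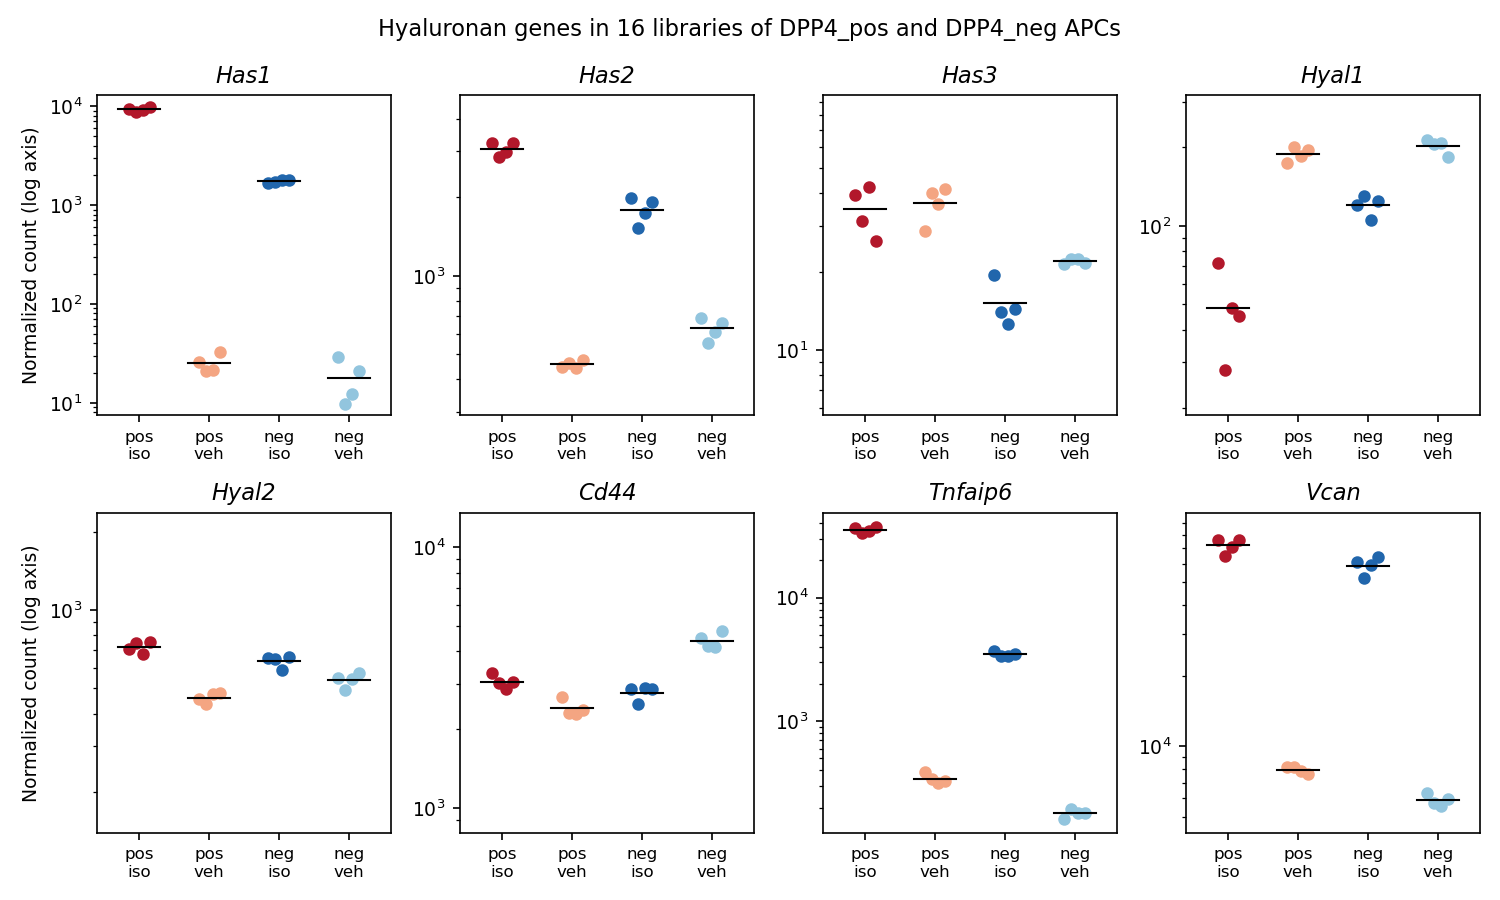
Normalized counts (log axis, each gene with its own range) of the 8 hyaluronan genes in each library, with the mean of 4 libraries as a line. Groups are, from left, DPP4_pos isoproterenol, DPP4_pos vehicle, DPP4_neg isoproterenol and DPP4_neg vehicle. Has1, Has2, Tnfaip6 and Vcan are higher with isoproterenol in both populations, Hyal1 is lower, and Cd44 differs in opposite directions.

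Levels of different synthases were compared per kilobase of annotated exon (GENCODE vM21 union of exons, 4.52 kb for Has1, 4.24 kb for Has2 and 6.38 kb for Has3). The summed level was 2786 ± 153 normalized counts per kb in DPP4_pos isoproterenol, 119 ± 5.16 in DPP4_pos vehicle, 810 ± 51.3 in DPP4_neg isoproterenol and 156 ± 15.8 in DPP4_neg vehicle libraries. Has1 made up 73.7% ± 0.49 of that sum in DPP4_pos isoproterenol libraries, against 4.67% ± 0.89 in DPP4_pos vehicle libraries. In DPP4_neg APCs its share was 47.5% ± 3.20 with isoproterenol, against 2.49% ± 0.99 with vehicle. Has2 held 26.1% ± 0.47 and 90.6% ± 0.98 in DPP4_pos isoproterenol and vehicle libraries, and 52.2% ± 3.18 and 95.2% ± 0.71 in the DPP4_neg ones (SD, n = 4). Thus Has2 transcripts led in both vehicle groups and Has1 transcripts in DPP4_pos APCs with isoproterenol. In DPP4_neg APCs with isoproterenol the shares of Has1 (43.7% to 50.9%) and Has2 (48.8% to 56.0%) overlapped.

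**Figure D2:**
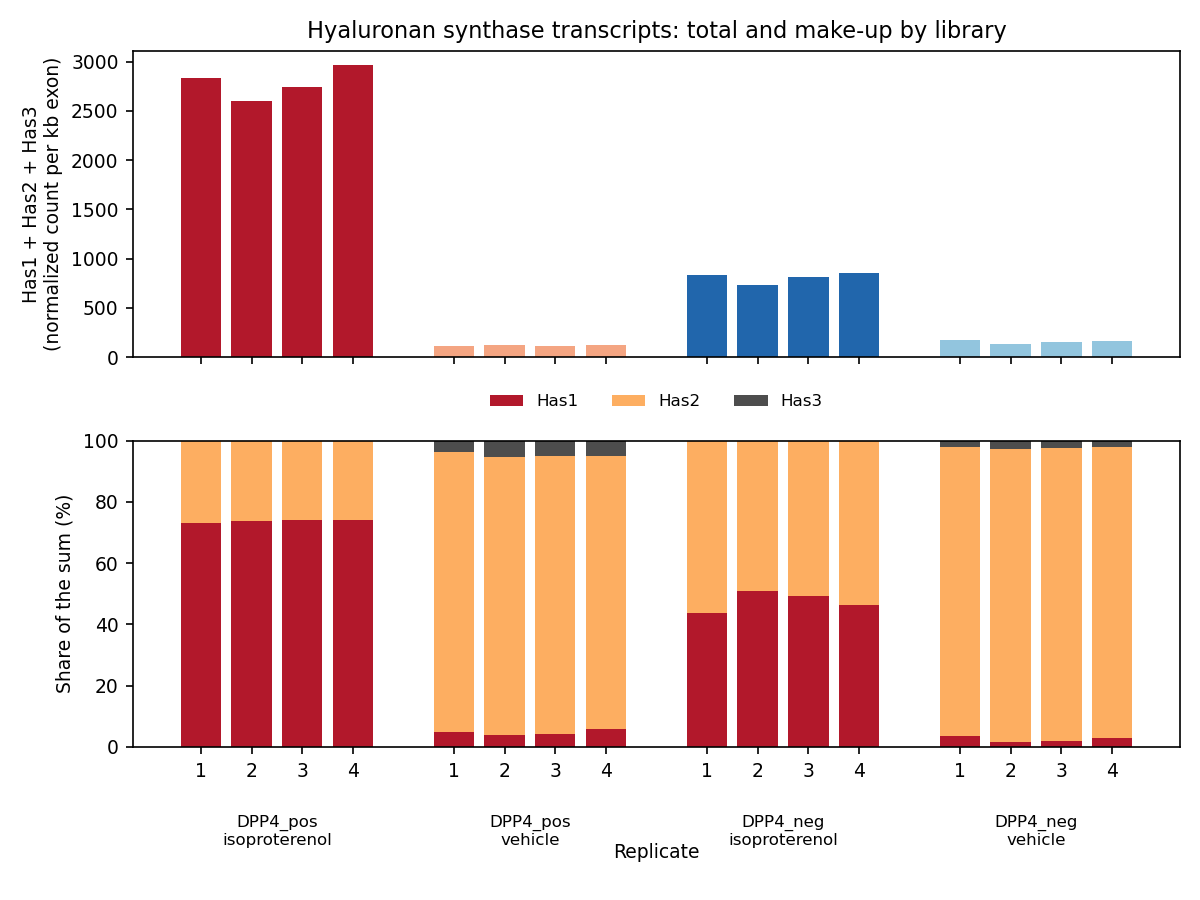
Summed level of Has1, Has2 and Has3 per kb of exon in each library (top, normalized counts per kb, linear axis from 0) and the percentage each synthase adds (bottom). The DPP4_pos isoproterenol libraries lie between 2601 and 2963, above the DPP4_neg isoproterenol libraries at 737 to 852, and Has1 is 73.0% to 74.0% of the sum in the DPP4_pos isoproterenol libraries and 1.58% to 5.78% in the vehicle libraries.

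Hyaluronan-binding proteins came next. Tnfaip6 (chromosome 2, 52038009 to 52056686) encodes TSG-6, which binds hyaluronan and transfers the heavy chains of inter-alpha-inhibitor onto it. It stood at 36547, 33632, 34405 and 37342 normalized counts in DPP4_pos isoproterenol libraries, against 384, 339.6, 317 and 329 in DPP4_pos vehicle libraries. The DPP4_neg libraries had 3689.5, 3393, 3359.9 and 3520.3 with isoproterenol, against 162, 196, 179.8 and 181 with vehicle. No groups overlapped, and the DPP4_pos values lay above the DPP4_neg values under both treatments. The means were 35482 ± 1749 and 342 ± 29.5 in DPP4_pos and 3491 ± 149 and 179.6 ± 13.6 in DPP4_neg isoproterenol and vehicle libraries, ratios of 104 and 19.4. The isoproterenol log2 difference was 6.69 ± 0.06 in DPP4_pos and 4.27 ± 0.06 in DPP4_neg APCs, a gap of 2.42 ± 0.08, which was the widest among the 8 genes.

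Vcan (chromosome 13, 89655312 to 89742509) encodes versican, a large chondroitin sulfate proteoglycan whose N-terminal part binds hyaluronan. Its values were 76115, 64513, 71005 and 75793 normalized counts in DPP4_pos isoproterenol libraries, against 8165, 8170.1, 7875 and 7642 in DPP4_pos vehicle libraries. They were 61006, 51976, 59053 and 63972 in DPP4_neg isoproterenol libraries, against 6323, 5739.5, 5566 and 5990.2 in DPP4_neg vehicle libraries. The isoproterenol difference was alike in size in the populations, 3.17 ± 0.06 in DPP4_pos and 3.32 ± 0.06 in DPP4_neg APCs on the log2 scale, ratios of 9.02 and 9.99. The DPP4_pos minus DPP4_neg gap of these differences was -0.15 ± 0.08 and ranged from -0.25 to -0.10 over the processing alternatives. Vcan had the highest normalized count of the 8 genes in each group.

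Cd44 (chromosome 2, 102811141 to 102901665) encodes the main cell surface receptor for hyaluronan. It stood at 3297, 3018, 2854 and 3046 normalized counts in DPP4_pos isoproterenol libraries, above the 2667, 2322, 2285 and 2368 in DPP4_pos vehicle libraries. In DPP4_neg APCs it stood at 2858, 2502, 2877 and 2847 with isoproterenol, below the 4482, 4165, 4135 and 4758 with vehicle. The log2 difference was 0.34 ± 0.06 in DPP4_pos and -0.66 ± 0.06 in DPP4_neg APCs. Under quantile normalization it was 0.01 in DPP4_pos APCs, so the higher level there depends on the scaling, and -0.75 in DPP4_neg APCs. With vehicle Cd44 was lower in DPP4_pos APCs by 0.86 ± 0.06, while with isoproterenol the populations overlapped.

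Hyaluronidases differed from each other although their genes lie 4.15 kb apart on chromosome 9. Hyal1 (107576927 to 107581710), which encodes a lysosomal hyaluronidase, stood at 71.9, 27.9, 48.2 and 45.1 normalized counts in DPP4_pos isoproterenol libraries, against 175, 201, 186 and 196 in DPP4_pos vehicle libraries. It stood at 119.9, 129.9, 106 and 125 in DPP4_neg isoproterenol libraries, against 214, 205, 208 and 184 in DPP4_neg vehicle libraries. All isoproterenol libraries were below the vehicle libraries of their population, by log2 differences of -2.02 ± 0.17 in DPP4_pos and -0.75 ± 0.17 in DPP4_neg APCs. The annotated Hyal1 gene overlaps Naa80 (mean 272 normalized counts) and Hyal3 (6.62) on the same strand. The counting may split reads between them, so the level of Hyal1 and its differences are uncertain. Naa80 was also lower with isoproterenol, at 164 ± 10.4 against 353 ± 11.4 with vehicle in DPP4_pos APCs. In DPP4_neg APCs it stood at 243 ± 22.4 with isoproterenol against 326 ± 13.9 with vehicle. Hyal2 (107567945 to 107572779), whose product is anchored at the cell surface and starts the cutting of long chains, stood at 709, 749, 681 and 755 in DPP4_pos isoproterenol libraries, against 455, 436, 475 and 479.9 in DPP4_pos vehicle libraries. It stood at 655, 651, 587 and 662 in DPP4_neg isoproterenol libraries, against 548, 493, 545 and 572 in DPP4_neg vehicle libraries. All isoproterenol libraries were above those of vehicle, with small log2 differences of 0.65 ± 0.06 in DPP4_pos and 0.24 ± 0.06 in DPP4_neg APCs.

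**Figure D3:**
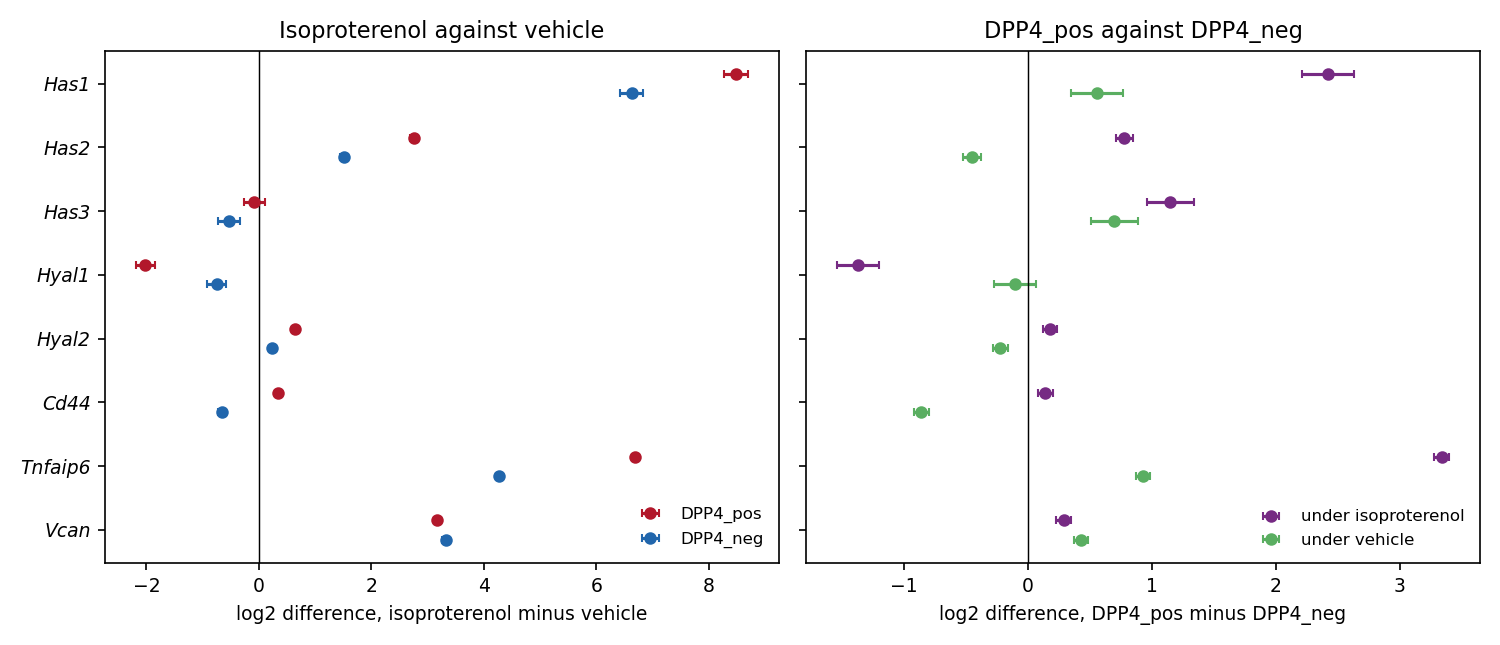
Log2 differences of the 8 genes with their standard errors, for isoproterenol minus vehicle in each population (left) and DPP4_pos minus DPP4_neg under each treatment (right). Has1 reaches 8.49 in DPP4_pos and 6.63 in DPP4_neg APCs, and Tnfaip6 differs between populations by 3.34 with isoproterenol and 0.93 with vehicle.

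Counted over the 8 genes, 7 had isoproterenol and vehicle libraries that did not overlap in DPP4_pos APCs (6 higher, 1 lower), where 77.8% of all genes tested had such groups (37.5% higher, 40.4% lower). In DPP4_neg APCs all 8 did (5 higher, 3 lower), against 58.9% of all genes (28.2% higher, 30.6% lower). Between DPP4_pos and DPP4_neg APCs 7 did not overlap with isoproterenol (6 higher, 1 lower), against 63.9% of genes (32.9% higher, 31.0% lower), and 6 did not with vehicle (3 higher, 3 lower), against 67.3% (32.1% higher, 35.2% lower). Since the genes were chosen with these levels known, nothing is read from the counts or from the medians that follow. The median log2 difference of the 8 genes was 1.70 in DPP4_pos and 0.88 in DPP4_neg APCs for isoproterenol against vehicle, where that of all 14005 genes was -0.05 and -0.02. Between populations it was 0.53 with isoproterenol and 0.17 with vehicle, where that of all genes was 0.00 and -0.01. These comparisons share libraries: each group enters both an isoproterenol and a population comparison.

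Per kilobase of exon, the order of the 8 genes changed with treatment. In DPP4_pos isoproterenol libraries Tnfaip6 led with 20750 ± 1023 normalized counts per kb, ahead of Vcan (4969 ± 375), Has1 (2054 ± 111), Has2 (727 ± 44.9), Cd44 (451 ± 27.0), Hyal2 (220 ± 10.7), Hyal1 (12.8 ± 4.80) and Has3 (5.46 ± 1.15). In DPP4_pos vehicle libraries Vcan led with 551 ± 17.6 per kb, followed by Cd44 (356 ± 25.8), Tnfaip6 (200 ± 17.2), Hyal2 (140 ± 6.05), Has2 (108 ± 3.63) and Hyal1 (50.1 ± 3.04). Has3 (5.74 ± 0.90) and Has1 (5.59 ± 1.25) came last there and did not differ beyond their spread. In DPP4_neg isoproterenol libraries Vcan (4080 ± 353 per kb) and Tnfaip6 (2041 ± 87.4) led. Has2 (424 ± 49.4), Cd44 (409 ± 26.5) and Has1 (384 ± 16) followed within their spread of each other, and Hyal2 (194 ± 10.6), Hyal1 (31.8 ± 2.76) and Has3 (2.37 ± 0.47) came after them. In DPP4_neg vehicle libraries Cd44 (647 ± 43.4 per kb) stood above Vcan (408 ± 22.7). Hyal2 (164 ± 10.1) and Has2 (148 ± 14) were within their spread, ahead of Tnfaip6 (105 ± 7.96) and Hyal1 (53.7 ± 3.41), and so were Has1 (3.98 ± 1.94) and Has3 (3.44 ± 0.083) at the low end.

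Genes with the most similar profile over the 16 libraries were found by the root-mean-square distance of log2 values, each gene centred on its mean. Closest to Has1 were Tox3 (distance 0.486), Krt20 (0.638) and the cytokine gene Il11 (0.770), and closest to Tnfaip6 were Syt7 (0.327), Iqgap2 (0.372) and Trdc (0.488). Has2 lay closest to the SUMO protease gene Senp2 (0.128), the pyrophosphatase gene Ppa1 (0.143) and the clock factor gene Arntl (0.153). Vcan lay closest to the tubulin gene Tuba4a (0.180), Gprc5b (0.205) and Fam126a (0.220). Hyal1 was nearest to Stard8 (0.226), Gng8 (0.254) and Mtrf1 (0.257), and Hyal2 to Mark3 (0.0625), Pabpc1 (0.0645) and Tkt (0.0657). Cd44 was nearest to Prepl (0.107), the oxygen sensor gene Egln1 (0.108) and Tnfaip1 (0.124), and Has3 to Cpne8 and Rgma (both 0.206) and Gsn (0.219). The libraries fall into 4 groups, so a small distance mostly reflects like group means, and it says nothing of shared control.

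Other genes of the pathway were tested for a change with isoproterenol, from a list of 47 that holds none of the 8. This list too was chosen with earlier results of these data known, so the p-values of its genes are no independent support. Of 11 genes of precursor supply, 8 rose and 2 fell in each population. The shares of all genes tested were 39.4% higher and 43.3% lower in DPP4_pos, and 32.1% higher and 33.6% lower in DPP4_neg APCs. The 11 genes were not tested as a set, and nothing is read from their count. The hyaluronan-depolymerizing protein gene Cemip fell in both populations. Of the 47 genes, 33 had enough reads to be tested. In DPP4_pos APCs 14 rose, 13 fell and 6 did not pass, and in DPP4_neg APCs 13 rose, 11 fell and 9 did not pass (limma, Benjamini-Hochberg adjusted p under 0.05 over all genes). Of all genes tested, 82.7% were called in DPP4_pos (39.4% higher, 43.3% lower) and 65.7% in DPP4_neg APCs (32.1% higher, 33.6% lower), so the shares of the list are near the background. The median log2 difference of the 33 was 0.02 in DPP4_pos and 0.07 in DPP4_neg APCs.

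The 11 genes of precursor supply, not all of which act only in making UDP-sugars, had median log2 differences of 0.96 in DPP4_pos and 0.55 in DPP4_neg APCs. Gfpt2, an isoform of the rate-limiting enzyme of the hexosamine pathway, stood at 123569, 120606, 125360.3 and 127824 normalized counts in DPP4_pos isoproterenol libraries, against 3983, 3928, 3921 and 3841 in DPP4_pos vehicle libraries. The DPP4_neg libraries held 30000.5, 31728, 27141 and 29373 with isoproterenol, against 1027, 937, 946 and 976 with vehicle. It rose by 4.99 ± 0.04 in DPP4_pos (limma adjusted p = 2.01e-27) and 4.92 ± 0.04 in DPP4_neg APCs (limma adjusted p = 2.61e-27) on the log2 scale. Uap1, which makes UDP-N-acetylglucosamine, rose to 32665 ± 2337 in DPP4_pos isoproterenol, against 1314 ± 40.7 in DPP4_pos vehicle libraries, and to 16955 ± 683 in DPP4_neg isoproterenol, against 1316 ± 15.5 in DPP4_neg vehicle libraries (log2 changes 4.63 ± 0.04 and 3.69 ± 0.04). Ugdh, which makes UDP-glucuronic acid, rose to 54616 ± 1614 in DPP4_pos isoproterenol, against 4499.7 ± 132 in DPP4_pos vehicle libraries, and to 25072 ± 447 in DPP4_neg isoproterenol, against 3556 ± 96.6 in DPP4_neg vehicle libraries (3.6 ± 0.03 and 2.82 ± 0.03). Hexokinase Hk2, at the entry of glucose into metabolism, rose by 4.33 ± 0.06 in DPP4_pos and 1.58 ± 0.06 in DPP4_neg APCs. Nagk, a salvage kinase of N-acetylglucosamine, fell by 1.61 and 0.85 in DPP4_pos and DPP4_neg APCs, and Ugp2, which makes UDP-glucose, did not pass in either (0.08 ± 0.04 and 0.06 ± 0.04). Both genes fell outside the rule for named genes and were chosen after their values were seen.

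Among the 10 other genes of breakdown, 5 were tested, and Hyal3, Hyal4, Hyal5, Hyal6 and Spam1 were too low. In DPP4_pos APCs 1 rose and 2 fell, and in DPP4_neg APCs none rose, 3 fell and 2 did not pass. Since 82.7% and 65.7% of all genes were called in these populations, nothing is read from the counts. Cemip stood at 1017, 848, 1083 and 964 normalized counts in DPP4_pos isoproterenol libraries, against 21040, 19644, 20408 and 22455 in DPP4_pos vehicle libraries. Those of DPP4_neg APCs had 1582, 1654, 1689 and 1815 with isoproterenol, against 23075, 22651, 23455 and 21647 with vehicle. The log2 change was -4.42 ± 0.06 in DPP4_pos (limma adjusted p = 3.25e-24) and -3.75 ± 0.06 in DPP4_neg APCs (limma adjusted p = 1.01e-22). Per kb of exon its vehicle means, 1708 in DPP4_pos and 1856 in DPP4_neg libraries, were above those of all 8 members. Its homologue Cemip2 rose in DPP4_pos APCs, to 1456 ± 114 with isoproterenol against 499.8 ± 16.8 with vehicle, and fell in DPP4_neg APCs, to 731 ± 77.0 with isoproterenol against 1227 ± 55.7 with vehicle (log2 changes 1.54 ± 0.07 and -0.75 ± 0.07). The difference of these responses was 2.29 ± 0.09 (limma adjusted p = 9.74e-15). Hexa, a gene of lysosomal sugar breakdown, fell by 0.19 in DPP4_neg APCs (standard error 0.05), and its difference in DPP4_pos APCs was -0.02 ± 0.05.

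Of 10 other receptors and CD44 linkers, 9 were tested, of which 3 rose and 5 fell in DPP4_pos and 4 rose and 3 fell in DPP4_neg APCs. The shares of all genes called were 82.7% and 65.7%, so nothing is read from these counts either. Ezr, which encodes ezrin, a linker of CD44 to actin, rose to 1849.5 ± 204 normalized counts in DPP4_pos isoproterenol, against 157 ± 14.6 in DPP4_pos vehicle libraries. In DPP4_neg APCs it rose to 973 ± 65.4 with isoproterenol, against 78.8 ± 11.4 with vehicle, and the log2 changes were 3.55 ± 0.09 and 3.62 ± 0.09. Tlr2, a pattern receptor that can respond to hyaluronan fragments, rose by 2.07 ± 0.10 in DPP4_pos and 1.55 ± 0.10 in DPP4_neg APCs, while Tlr4 fell by 1.21 and 1.33. Macrophages also express both receptors. The macrophage marker sums averaged 958 normalized counts in DPP4_pos isoproterenol against 690 in DPP4_pos vehicle libraries. In DPP4_neg APCs they averaged 1347 with isoproterenol against 612 with vehicle, and the ranges overlapped in each population. The DPP4_neg sums were mostly Csf1r, at 693 with isoproterenol against 175 with vehicle, and Lyz2, at 355 against 277. The other macrophage markers were also higher with isoproterenol there. The part of macrophages in the result was not tested. Stab2, an endocytic hyaluronan receptor, was low, with 12.7 ± 4.18 normalized counts in DPP4_pos isoproterenol and 24.8 ± 4.41 in DPP4_pos vehicle, and 22.4 ± 3.18 in DPP4_neg isoproterenol and 3.52 ± 1.59 in DPP4_neg vehicle libraries. Its fall in DPP4_pos APCs (-0.95 ± 0.28, limma adjusted p = 0.00386) did not pass under quantile normalization (-0.49, limma adjusted p = 0.0935), and adjusted p lay between 0.000607 and 0.0176 in the other alternatives.

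Of 16 other matrix binders, 8 were tested, of which 2 rose and 4 fell in DPP4_pos and 1 rose and 3 fell in DPP4_neg APCs. Again 82.7% and 65.7% of all genes were called, and nothing is read from the counts. Ptx3, a pentraxin that joins the heavy chains carried by hyaluronan, fell to 3520.2 ± 296 normalized counts in DPP4_pos isoproterenol, against 12031 ± 605 in DPP4_pos vehicle libraries. In DPP4_neg APCs it fell to 1952 ± 79.8 with isoproterenol, against 14644 ± 815 with vehicle, and the log2 changes were -1.78 ± 0.05 and -2.91 ± 0.05. The link protein gene Hapln4 rose by 2.07 ± 0.14 in DPP4_pos and 2.46 ± 0.14 in DPP4_neg APCs. Its level was low, 105 normalized counts in DPP4_pos isoproterenol against 24.1 in DPP4_pos vehicle libraries, and 187 in DPP4_neg isoproterenol against 33.4 in DPP4_neg vehicle libraries. The inter-alpha-inhibitor heavy chain genes Itih4 and Itih5 fell in DPP4_pos (by 1.5 ± 0.31 and 0.43 ± 0.06) and in DPP4_neg APCs (by 1.04 ± 0.31 and 0.47 ± 0.06). Itih4 was low in DPP4_pos APCs, at 7.82 ± 5.68 normalized counts with isoproterenol (2 to 9 reads per library) against 20.4 ± 3.15 with vehicle. In DPP4_neg APCs it stood at 51.9 ± 11.1 with isoproterenol against 107 ± 9.75 with vehicle.

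**Figure D4:**
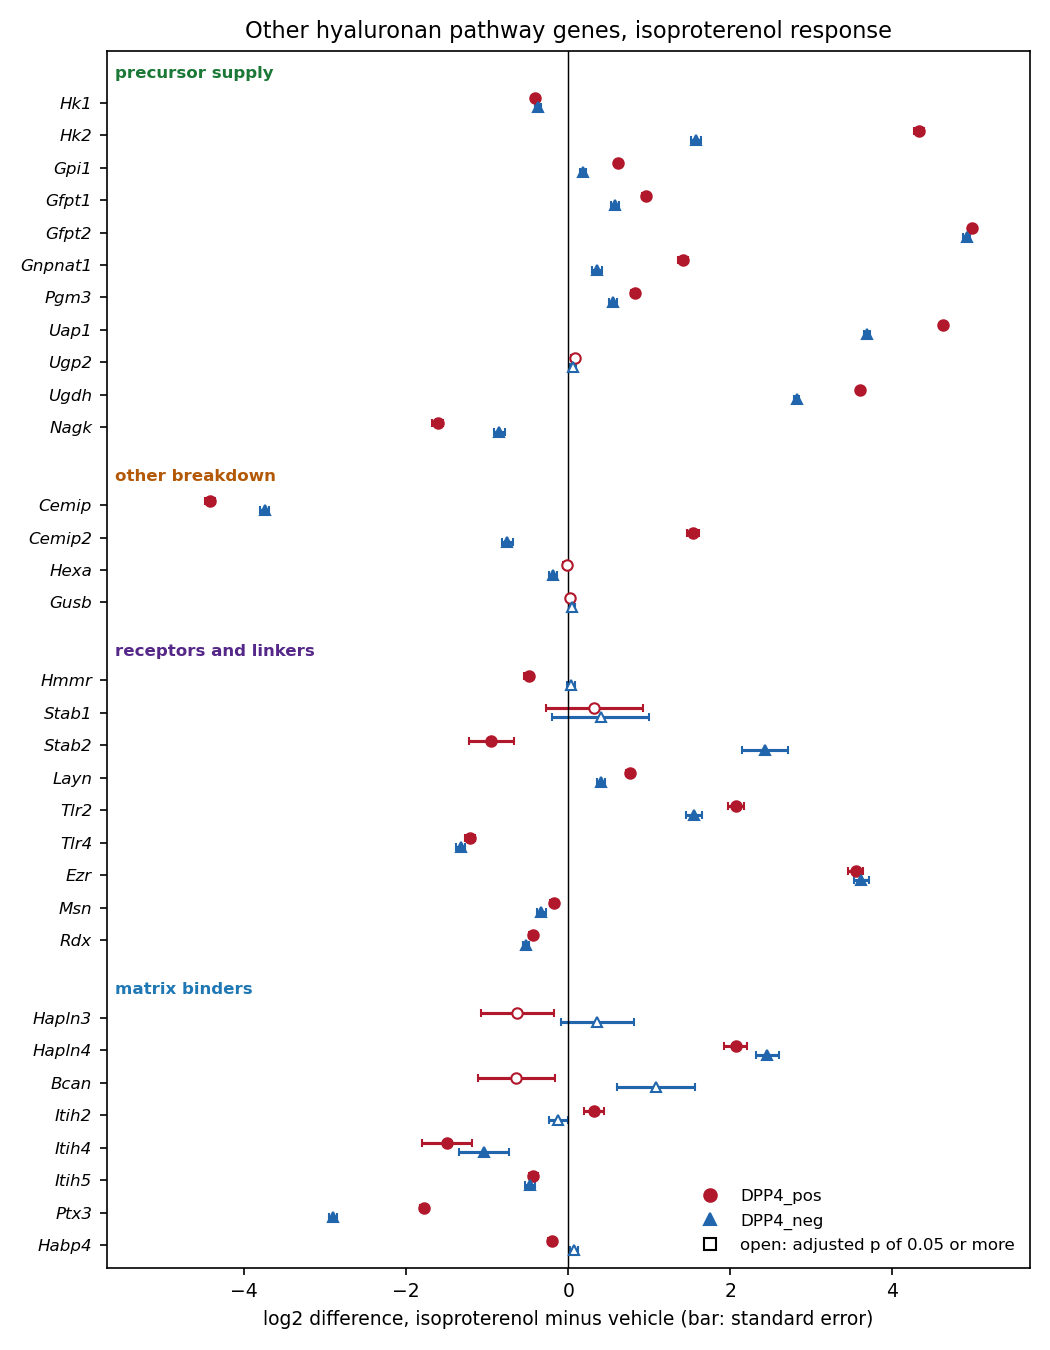
Log2 differences, isoproterenol minus vehicle, of 32 of the 33 tested pathway genes outside the 8 members, by role, with standard errors. Circles are DPP4_pos and triangles DPP4_neg APCs, and open symbols did not pass adjusted p under 0.05. Gfpt2, Uap1, Ugdh and Ezr lie to the right in both populations and Cemip and Ptx3 to the left.

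Pathway genes were also compared between the populations before stimulation. In vehicle libraries 12 of the 33 genes were higher and 14 lower in DPP4_pos than in DPP4_neg APCs, where 66.6% of all genes were called (31.6% higher, 35.0% lower). With so many genes called, nothing about the pathway as a whole is read from this count or those below. Gfpt2 was higher by 2.01 ± 0.04, the receptor gene Layn (layilin) by 1.33 ± 0.05, Tlr2 by 2.14 ± 0.10, Stab2 by 2.56 ± 0.28, and Hexa by 1.33 ± 0.05. Itih2 was lower by 4.27 on the log2 scale (16.8 ± 1.86 normalized counts in DPP4_pos and 342 ± 5.20 in DPP4_neg vehicle libraries), and Hk2 by 1.68 and Cemip2 by 1.29. Itih4 was lower by 2.34 ± 0.31 and Hapln3 by 1.79 ± 0.45. They were low in DPP4_pos vehicle libraries, at 20.4 and 3.5 normalized counts, against 107 and 14.1 in DPP4_neg vehicle libraries. Gpi1 was lower by 0.49 and Hk1 by 0.40, and Itih5 was higher by 1.69 ± 0.06 and Gusb by 0.21 ± 0.04. The higher level of Stab1 (1.49 ± 0.60, limma adjusted p = 0.0334) did not pass without DPP4_neg vehicle replicate 1 (limma adjusted p = 0.173) or replicate 2 (0.0584) or without DPP4_pos vehicle replicate 1 (0.138). It also did not pass by DESeq2 (adjusted p = 0.0909), without the filter (limma adjusted p = 0.0592) and under quantile normalization (limma adjusted p = 0.0506). With isoproterenol 17 genes were higher and 13 lower in DPP4_pos APCs, where 74.4% of all genes were called (37.4% higher, 37.0% lower). The response to isoproterenol differed between populations in 20 of the 33, 13 higher and 7 lower in DPP4_pos APCs, where 62.6% of all genes were called (31.6% higher, 31.0% lower). Under quantile normalization 9 were higher and 14 lower, so that split depends on the scaling.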

How the data were processed

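Read counts per gene and library, divided by a size factor per library, were deposited by the authors as a normalized count signal. Per the submitters' processing notes, the tools were featureCounts 1.4.6, DESeq2 1.6.3, HISAT2 2.0.1 and Trim Galore 0.4.1, with GRCm38 and mm10 as builds. Their settings and the annotation are not stated in what was read here. Dividing by the value of 1 read gave whole reads for 100.0% of 280334 values above 0 (within 0.001). Of 27179 entries, 958 had an Entrez identifier but no symbol (0.093% of normalized counts) and stayed in the fits, and 26 symbols turned into dates were restored by Entrez identifier. The 14005 genes with at least 10 normalized counts in at least 4 libraries were tested with limma 3.58.1 (R 4.3.3, mean-variance trend) on log2(normalized count + 1), all 16 libraries, 4 group means, Benjamini-Hochberg adjustment over all genes. This scale understates changes of low genes. Standard errors of log2 differences come from this fit. It uses a shared estimate of spread per gene over the 4 groups, moderated across genes, so the populations carry equal errors. edgeR 4.0.16 and DESeq2 1.42.0 on recovered reads were alternatives. The fits were tested on simulated data.

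The members, lists and tests were chosen with earlier results of these data known. Pathway genes were named where called with the 4 largest absolute differences per role list and comparison. Loci and exon lengths come from GENCODE vM21 and promoters from RefSeq. Across genes, libraries within groups had pairwise r between 0.986 and 0.995, and they differed by more than counting noise (chi-square per degree of freedom 1.618 to 9.387). Coincident marker sums are given without a test. The values of 1 pathway gene are not reported here, though it counts among the genes tested.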

Additional observations from a re-analysis of the deposited data

Results flagged for a closer look

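Within groups of 4 libraries, 2 of 32 checks of the 8 genes found a library far from the others: Cd44 in DPP4_neg isoproterenol replicate 2 (2502 normalized counts, the lowest) and Hyal2 in DPP4_neg isoproterenol replicate 3 (586.8, the lowest). Chance flags about 1 in 20 such groups.

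Cd44 lay, in every isoproterenol library, above vehicle in DPP4_pos and below it in DPP4_neg APCs, with a gap of 1.0 on the log2 scale. That difference was not tested, and the DPP4_pos difference was 0.01 under quantile normalization. Among the pathway genes that the rule for named genes chose and that are reported, isoproterenol responses of opposite sign differed for Cemip2 (DPP4_pos minus DPP4_neg 2.29) and Stab2 (-3.38). Stab2 was low, with 2 to 10 reads per DPP4_neg vehicle library. Its fall in DPP4_pos APCs, on which the opposite sign rests, did not pass under quantile normalization. Responses of like sign, or called in only 1 population, differed for Hk2 (2.75), Ptx3 (1.13), Uap1 (0.95), Ugdh (0.78), Tlr2 (0.52), Hexa (0.17) and Cemip (-0.67), each by the limma interaction term at adjusted p under 0.05. Hexa passed narrowly (limma adjusted p = 0.0477), and its isoproterenol and vehicle libraries overlapped in both populations. The interaction terms of single pathway genes were not compared over the processing alternatives. In all, 20 of the 33 tested pathway genes passed the interaction term, where 62.6% of all genes tested did. Among them were Gnpnat1 (1.06), Gpi1 (0.44), Itih2 (0.44), Gfpt1 (0.38), Layn (0.35) and Pgm3 (0.27). Negative values were those of Bcan (-1.72, at most 17.1 normalized counts in a group mean), Nagk (-0.76), Hmmr (-0.53) and Habp4 (-0.27). These genes were chosen after their values were seen.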

How the results depend on the processing

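Counts of all genes called and of pathway genes called stayed within 1.5 times the reported count under every alternative run (pseudocounts of 0.5 and 8, other filters, quantile and TMM scaling, edgeR, DESeq2, the replicate block, fits to the groups compared, and leaving out each library). Counts of members without overlap did so under quantile and TMM scaling and without each library, the alternatives that bear on overlap. Without single libraries, the pathway genes called ranged from 26 to 28 for isoproterenol in DPP4_pos, 24 to 25 in DPP4_neg, 29 to 30 between populations with isoproterenol, 24 to 28 with vehicle and 17 to 20 for the difference of responses. No difference of a member whose groups did not overlap changed sign. Of 1027 recomputed member differences, 22 moved by more than the replicate SD, all but 2 of them under quantile normalization. Of 1189 recomputed differences of the pathway genes that the rule for named genes chose, 7 no longer passed, those of Stab1 and Stab2 given above. Same-numbered libraries did not deviate together (r from -0.231 to 0.131 over 24 pairs). With the replicate block 27 pathway genes were called in DPP4_pos, 24 in DPP4_neg, 30 between populations with isoproterenol, 27 with vehicle and 21 for the difference of responses. Read depth limits Has3, Hyal1 and the vehicle values of Has1 most.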
